A study of Mus musculus with 32 samples.

Results

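The genes described here encode factors that build ribosomes, and they were followed in mouse macrophage lines deprived of, given or grown in CSF-1, the growth factor of macrophages. The list holds 51 named genes, chosen with earlier results of these data known. Their counts set against all genes are therefore descriptive. A gene was measured where the array annotation ties a probe set to that gene alone; of several such probe sets, the brightest by its mean on the 32 arrays was kept. In this way 49 of the 51 genes were measured, of 19938 genes on the array with such a probe set. Noc2l had no entry in the annotation, and the 1 probe set of Ppan is shared with B130055M24Rik, so neither has a value of its own below.

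The study compared lines named for the CSF-1 receptor they carry, and in the labels each name starts with M-/- followed by WT, 3ABY721, Y721F or 3AB, the names used here. WT and 3ABY721 have phosphorylated Tyr-721 in the receptor, while Y721F and 3AB lack that tyrosine. For the time course, cells of WT and Y721F were starved of CSF-1 overnight and then given it for 0, 20, 60 or 180 min. In a second experiment all 4 lines were either starved of CSF-1 (UR) or kept in it continuously (CONST). Each of the 16 groups has 2 arrays, numbered I and II and called biological replicates in the series text. All cells were cultured with newborn calf serum, and human recombinant CSF-1 was used at 120 ng/mL where present. Each receptor form is represented by 1 line, so the form and any other property of its line cannot be told apart; whether a line is 1 clone is not given in the sources used here. A substitution in the receptor is not visible to an expression array, so it was not checked.

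Ribosomes are assembled in the nucleolus, where RNA polymerase I copies the ribosomal DNA into a long precursor RNA. Small nucleolar RNPs modify that precursor, large assemblies of helicases, WD-repeat proteins and scaffolds fold and cut it, and the small and large subunits then mature separately and leave for the cytoplasm. The pathway is among the costliest that a growing cell runs, and growth factors such as CSF-1, which drives macrophages to survive and divide, are known to raise it.

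The deposited values are log2 signals, so a difference between groups is a log2 difference. Array medians lay between 5.97 and 6.22, and the arrays of a group correlated at 0.986 to 0.996 over all genes. Of 10 macrophage marker genes, all had a mean above the 20th percentile of gene means (4.87), a level most genes pass, from 8.51 to 13.08. Of the markers of other cells, 5 of 8 for fibroblasts, 3 of 6 for lymphocytes, 5 of 8 for granulocytes and mast cells and 5 of 6 for dendritic cells were also above that level, with gene means of at most 8.02. In single arrays Fcgr1 fell to 5.99 and Mertk to 5.43, below the median gene mean of 6.57. No other macrophage marker fell below 10.07. Among the markers of other cells, single arrays reached 9.52 for Cd2 (lymphocyte) and 9.64 for Pdgfra (fibroblast). These are bulk samples, in which fewer cells of a type and less RNA per cell cannot be told apart. A gene was called where limma's adjusted p was under 0.05 and the fold was above 1.5, and p-values were adjusted over all 19938 genes. With 2 arrays a group, p-values rest on a spread pooled over the groups of an experiment. A gene whose arrays disagree in 1 group thus has a larger SE in every comparison of that experiment.

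In WT cells the ribosome biogenesis genes stood higher at 180 min of CSF-1 than at 0 min, and limma called 18 of the 49 higher and none lower. The differences ran from 0.49 to 2.13 with a median of 1.2, against a median of 0 over all genes. Across the array, 1.38% of genes were called higher and 0.782% lower in this comparison. In all 49 members both arrays at 180 min lay above both arrays at 0 min, as they did in 22.1% of all genes. With the series number I or II as a block, 47 of the 49 were called higher, against 4.63% of all genes; the 2 left were Pes1 and Ddx10. The count without the block rested on all 4 arrays: it was 0 without 0 min array I, 2 without 0 min array II, 3 without 180 min array I and 0 without 180 min array II. Heatr1 and Nop2 kept their call in 2 of the 4 omissions, Utp15 in 1, and the other 15 genes in none.

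**Figure D1:**
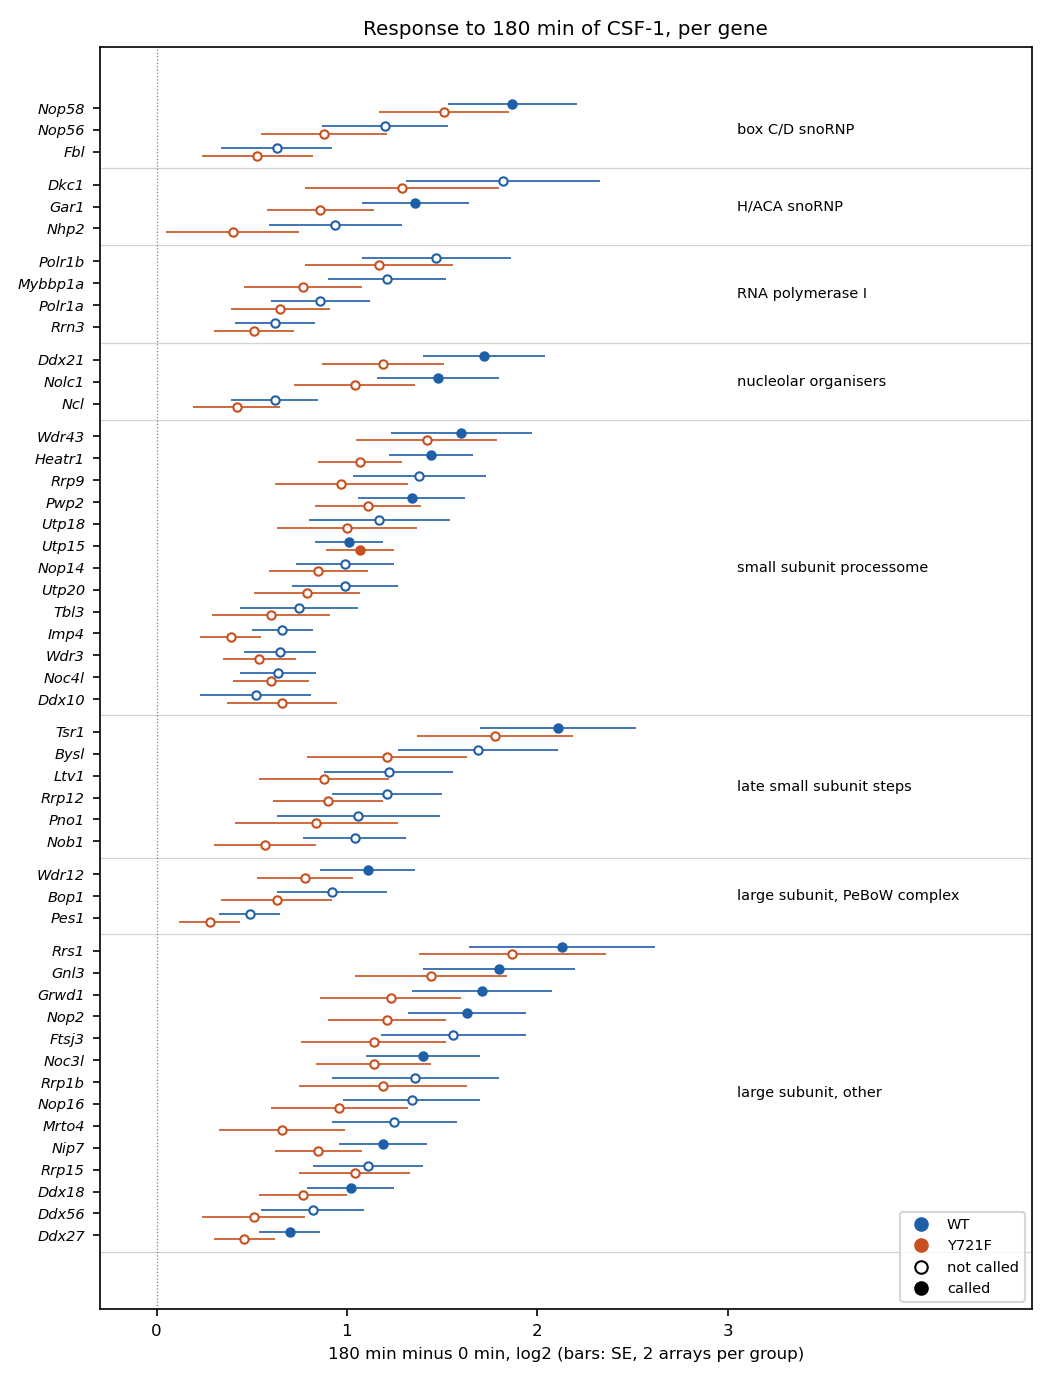
The difference between 180 min and 0 min of CSF-1 (log2) is drawn for each of the 49 genes, grouped by role. Bars show limma's SE, which rests on a spread pooled over all time-course groups, with 2 arrays a group. Filled points were called by limma. In WT (blue) the genes lie between 0.49 and 2.13 and 18 are filled, and in Y721F (orange) they lie between 0.28 and 1.87 and 1 is filled, Utp15.

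Among the box C/D small nucleolar RNP proteins, which carry the guide RNAs for 2′-O-methylation of ribosomal RNA, 1 of 3 was called at 180 min in WT. Nop58, a core scaffold protein of these particles, read 7.85 and 8.09 at 0 min in arrays I and II and 9.91 and 9.77 at 180 min. Both stimulated arrays were thus far above both unstimulated ones, and the gene rose by 1.87 (SE 0.34, n = 2 a group, adjusted p = 0.0231 by limma), a 3.66-fold difference. Nop56, the paralogous scaffold, read 10.2 and 10.56 against 11.42 and 11.74, and its difference of 1.2 (SE 0.33) had an adjusted p of 0.0865 in limma and 0.0116 with the block. Fbl encodes fibrillarin, the methyltransferase of the particle, and read 8.82 and 8.74 against 9.57 and 9.25, a difference of 0.63 (SE 0.29) with adjusted p = 0.349 in limma and 0.0369 with the block. The arrays of the groups did not overlap for either gene.

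The H/ACA particles guide the conversion of uridine to pseudouridine. Of their 3 measured proteins, Gar1 was called at 180 min in WT, with a difference of 1.36 (SE 0.28, adjusted p = 0.033 by limma, n = 2 a group). Its signal was 8.05 and 8.43 at 0 min and 9.46 and 9.75 at 180 min. Dkc1, the pseudouridine synthase of the particle, had a larger difference, 1.82, but also a larger pooled spread (SE 0.51). It was called with the block only (adjusted p = 0.0939 in limma and 0.00986 with the block).

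None of the 4 genes of RNA polymerase I and its regulators was called in WT at 180 min without the block, although all 4 had an unadjusted p under 0.05; with the block all 4 were called. Polr1b, the second-largest subunit of the enzyme, read 8.46 and 8.56 at 0 min and 9.84 and 10.12 at 180 min, and the difference was 1.47 (SE 0.39, adjusted p = 0.0788 by limma and 0.0103 with the block, n = 2 a group). Rrn3, the initiation factor that brings the polymerase to the ribosomal DNA promoter, moved within a narrower range, from 9.24 and 9.34 to 9.77 and 10.04. Its difference of 0.62 (SE 0.21, adjusted p = 0.172 by limma) was among the smallest of the list, and became a call with the block (adjusted p = 0.0138). The other 2 genes of the group were Mybbp1a, a nucleolar protein that binds MYB, at 1.21 (SE 0.31), and Polr1a, the largest subunit, at 0.86 (SE 0.26).

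Of 3 genes that organise the nucleolus, Ddx21 and Nolc1 were called in WT at 180 min and Ncl was not. Ddx21, an RNA helicase of the nucleolus, read 8.68 and 9.0 at 0 min and 10.54 and 10.59 at 180 min, a rise of 1.72 (SE 0.32, adjusted p = 0.0246 by limma, n = 2 a group). Ncl encodes nucleolin, an abundant nucleolar RNA-binding protein, and its signal of 10.47 and 10.39 was followed by 11.09 and 11.02. The groups did not overlap, and the difference of 0.62 (SE 0.23) had adjusted p = 0.204 in limma and 0.0296 with the block.

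The small subunit processome is the particle that forms on the 5′ end of the precursor RNA around the U3 small nucleolar RNA. Of its 13 measured members, 4 were called in WT at 180 min, and 12 with the block; the median difference was 0.99. Heatr1, the large HEAT-repeat subunit that also takes part in transcription of the ribosomal DNA, had the lowest adjusted p of the list in this comparison. It read 8.26 and 8.63 at 0 min and 9.77 and 10.01 at 180 min, so it rose by 1.44 (SE 0.22, adjusted p = 0.0158 by limma, n = 2 a group). Utp15, a WD-repeat subunit of the complex, went from 8.22 and 8.45 to 9.2 and 9.49, a rise of 1.01 (SE 0.18, adjusted p = 0.0211 by limma, n = 2 a group). Ddx10, an RNA helicase of the particle, had the second-smallest difference of the whole list, 0.52 (SE 0.29, adjusted p = 0.499 by limma), with 7.92 and 7.8 at 0 min and 8.39 and 8.37 at 180 min.

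Factors that act on the small subunit after the processome has come apart had a median difference of 1.21 over 6 genes, and 1 of the 6 was called (all 6 with the block). That gene was Tsr1, a GTPase-like protein of the late particles, which read 7.06 and 7.27 at 0 min and 9.31 and 9.24 at 180 min. It rose 4.32-fold, by 2.11 on the log2 scale (SE 0.41, adjusted p = 0.0272 by limma, n = 2 a group). Bysl, which encodes bystin and is needed for small subunit maturation, had a difference of 1.69 (SE 0.42, adjusted p = 0.0609 by limma, 0.00314 with the block).

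On the large subunit side, the PeBoW complex of Pes1, Bop1 and Wdr12, which is needed to process the precursor of the long ribosomal RNAs, had 1 called gene of 3, Wdr12 (1.11, SE 0.25, adjusted p = 0.0447 by limma, n = 2 a group). Pes1 had the smallest difference of the 49 genes, 0.49 (SE 0.16), with 9.07 and 9.21 at 0 min and 9.68 and 9.58 at 180 min. The remaining 14 large subunit factors included 8 of the 18 calls (all 14 genes were called with the block) and had a median of 1.35. Rrs1, which helps bring ribosomal proteins and their RNA into the nascent subunit, read 5.79 and 5.94 at 0 min and 7.86 and 8.13 at 180 min. This was the largest difference of the list, 2.13 (SE 0.49, adjusted p = 0.0467 by limma, n = 2 a group), or 4.38-fold. Gnl3 encodes nucleostemin, a nucleolar GTPase, and went from 7.77 and 8.09 to 9.65 and 9.81, a rise of 1.8 (SE 0.4, adjusted p = 0.0404 by limma, n = 2 a group). Grwd1, a WD-repeat protein and histone chaperone tied to ribosome assembly, went from 6.84 and 7.31 to 8.58 and 8.98, a rise of 1.71 (SE 0.37, adjusted p = 0.0385 by limma, n = 2 a group). In each of these 3 genes both stimulated arrays lay above both unstimulated arrays.

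Because the genes moved together, their promoters were searched for 4 sequence motifs on both strands, over 250 bases before and 50 after each annotated start in RefSeq (GRCm38.p6). Promoters were found for 46 of the 51 genes, 50 promoters in all. The E-box CACGTG, the core element bound by MYC with MAX and by other basic helix-loop-helix factors, was in 12 of the 50 (24.0%) and in 7.15% of all 32851 promoters of the same length. Counted by gene and against genes measured on the array, the shares were 26.1% of 46 and 9.5% of 15614. The motif CCGGAAG, or CTTCCGG on the other strand, the core of ETS factor sites, was in 20 of the 50 (40.0%) against 8.86%, or by gene in 41.3% against 13.6%. CGCATGC, part of the NRF1 motif, was in 8.0% against 3.58% (by gene 8.7% against 5.39%), and TATAAA was in 6.0% against 13.6% (by gene 6.52% against 13.6%). The 12 genes with an E-box were Grwd1, Imp4, Ltv1, Mybbp1a, Nop2, Pes1, Pno1, Rrn3, Tsr1, Utp18, Utp20 and Wdr43. In 8 of them it lay after the start. The sites before the start are shown here with the bases around them, 5′ to 3′ in the direction of the gene, with the E-box in capitals.
Imp4, chr1:34439698-34439723, plus strand: ggtcttagacCACGTGacatcccaaa
Nop2, chr6:125131813-125131838, plus strand: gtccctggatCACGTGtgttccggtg
Rrn3, chr16:13780474-13780499, plus strand: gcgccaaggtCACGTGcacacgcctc
Rrn3, chr16:13780641-13780666, plus strand: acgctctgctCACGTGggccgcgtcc
Utp18, chr11:93885771-93885796, minus strand: gagcgccggtCACGTGgcttgcggcg

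The 250 bases before the start of Nop2, the methyltransferase NSUN1 of the large subunit rRNA, hold an E-box and a CCGGAAG motif close to each other; those of Nop58, which was among the genes with the largest differences, hold neither. Both are printed for that contrast, with the motifs in capitals.
Nop2, chr6:125131633-125131882, plus strand: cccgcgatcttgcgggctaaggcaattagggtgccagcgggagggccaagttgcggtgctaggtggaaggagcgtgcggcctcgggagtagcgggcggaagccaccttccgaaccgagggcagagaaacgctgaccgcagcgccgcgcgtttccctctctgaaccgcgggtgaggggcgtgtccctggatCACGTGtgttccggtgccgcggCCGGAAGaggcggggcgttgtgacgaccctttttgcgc
Nop58, chr1:59684756-59685005, plus strand: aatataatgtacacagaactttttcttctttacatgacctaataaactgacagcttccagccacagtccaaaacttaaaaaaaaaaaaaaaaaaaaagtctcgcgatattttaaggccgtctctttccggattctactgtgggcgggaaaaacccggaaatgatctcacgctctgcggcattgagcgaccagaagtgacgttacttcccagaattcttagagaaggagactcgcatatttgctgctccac
Over the 44 measured genes with a promoter, the WT difference at 180 min had a median of 1.19 in the 12 with an E-box and 1.23 in the 32 without, and of 1.22 in the 17 with CCGGAAG and 1.2 in the 27 without. The presence of these letters is a description of the window and no evidence of binding.

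The earlier times showed that series I and II did not follow the same course, and they are therefore described apart. In WT series I, the median difference from 0 min over the 49 genes was 0.72 at 20 min, 1.36 at 60 min and 1.21 at 180 min. In WT series II it was 0.06, 0.19 and 1.2. The differences at 180 min were thus close in both series, while at 60 min series I had reached 112% of its 180 min value and series II 15.8%. At 60 min, all 49 genes were above 1.5-fold in series I and 4 of them in series II, against 7.13% and 1.95% of all genes. At 20 min the counts were 30 and 0, against 2.01% and 0.858% of all genes. The series I difference was the larger one in 49 of 49 genes at 20 min and at 60 min, and in 34 of 49 at 180 min.

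**Figure D2:**
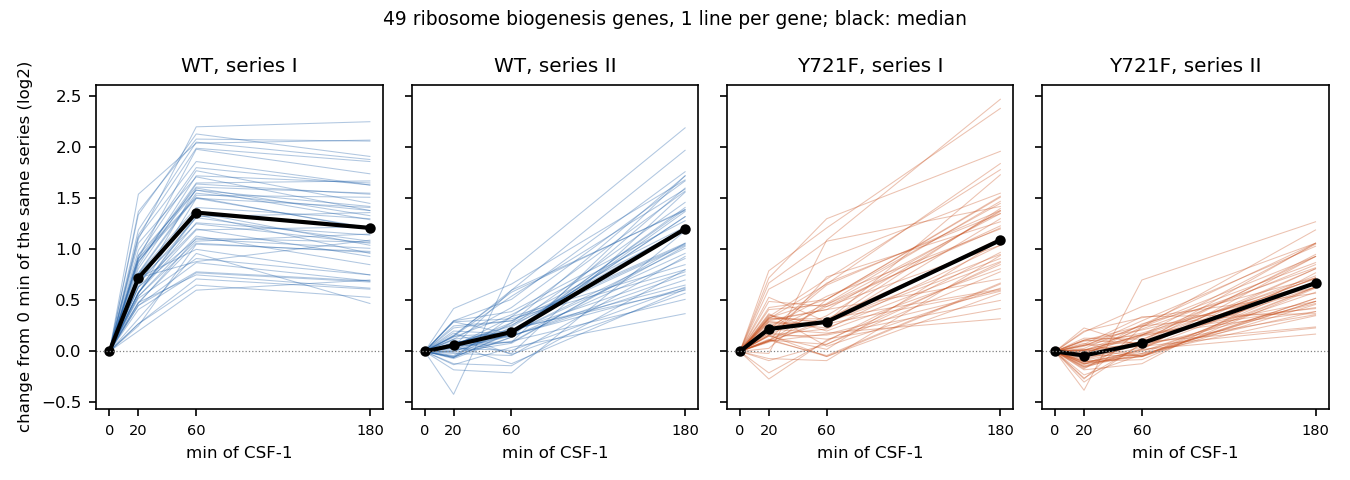
Each line is 1 of the 49 genes, plotted as the log2 change from 0 min of the same line and series against time in min; the black line is the median. WT series I reaches a median of 1.36 at 60 min and stays near it, while WT series II is at 0.19 at 60 min and at 1.2 at 180 min, and the Y721F medians at 60 min are 0.29 and 0.08.

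The same split was seen in single genes. Nop58 in WT was up by 1.37 at 20 min and 2.08 at 60 min in series I, and by 0.42 and 0.66 in series II. Tsr1 read 9.26 at 60 min in series I, close to its 9.31 at 180 min, but 7.87 at 60 min in series II, far below its 9.24 at 180 min. Polr1b was at 10.01 at 60 min in series I and at 8.54, the level of unstimulated cells, in series II. Nop56 at 60 min stood 1.19 above 0 min in series I and at a change of -0.21 in series II.

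With both series in the test, none of the 49 genes was called in WT at 20 or 60 min by limma; 2 and 36 of them had an unadjusted p under 0.05, and 0.155% and 0.547% of all genes were called higher. At 60 min all 49 differences were above 0, with a median of 0.78, and in 40 genes the arrays at 60 min lay above those at 0 min without overlap (19.0% of all genes). The block gave 15 calls at 60 min, against 2.76% of all genes. Those with the largest differences were Tsr1 (1.4), Nop58 (1.37), Ddx21 (1.26) and Grwd1 (1.21), with adjusted p of 0.0353, 0.0185, 0.0258 and 0.0358 by limma with the block (n = 2 a group). Without 60 min array II the count at 60 min was 33.

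In Y721F cells all 49 differences between 180 min and 0 min were also above 0, from 0.28 to 1.87 with a median of 0.88. Utp15 was the 1 gene called, against 0.171% of all genes called higher. It read 8.24 and 8.46 at 0 min and 9.45 and 9.39 at 180 min, a rise of 1.07 (SE 0.18, adjusted p = 0.0421 by limma, n = 2 a group). The call was lost without any 1 of the 4 arrays. With the block, 29 of the 49 genes were called higher, against 2.65% of all genes. The pooled spread takes in the WT arrays at 20 and 60 min, where the members had a median I minus II of 0.43 and 1.01. The count of 1 against 18 in WT is therefore no measure of a difference between the lines. In 48 genes, all but Tbl3, the arrays at 180 min lay above those at 0 min (20.1% of all genes). Rrs1 again had the largest difference, 1.87 (SE 0.49), from 5.84 and 6.25 to 8.31 and 7.52, and was called with the block (adjusted p = 0.11 by limma, 0.0188 with the block). Nop58 went from 8.32 and 8.84 to 10.28 and 9.9, a difference of 1.51 (SE 0.34) with adjusted p = 0.0794 by limma and 0.0116 with the block. Polr1b went from 8.29 and 9.02 to 9.69 and 9.95, Nop56 from 10.37 and 10.99 to 11.46 and 11.67, and Rrn3 from 9.04 and 9.46 to 9.63 and 9.88.

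At the earlier times in Y721F, limma called none of the 49 genes, against 0.0752% and 0.160% of all genes called higher at 20 and 60 min, and 0 and 2 of the members had an unadjusted p under 0.05. With the block limma called none either (0.196% and 0.687% of all genes). The medians at 20, 60 and 180 min were 0.22, 0.29 and 1.09 in series I and -0.04, 0.08 and 0.67 in series II. At 60 min the 2 series had reached 26.6% and 11.9% of their 180 min values. The largest change from 0 min to 60 min was that of Nop58 in series I, 1.3, and that of Rrs1 in series II, 0.7. Series I again exceeded series II in 49 of 49 genes at 180 min.

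The difference between the responses of the 2 lines was tested directly, and limma called none of the 49 genes at 20, 60 or 180 min; 0 had an unadjusted p under 0.05, and no gene of the array was called. With the block limma again called no member, where 1 gene of the array (0.00502%) was called lower at 20 min and at 60 min. The Y721F response was the smaller one in 48 of 49 genes at 20 min, 49 at 60 min and 47 at 180 min. Its median shortfall was -0.28, -0.57 and -0.3, where the median of all genes was 0.01, -0.01 and -0.02. At 60 min the WT value averages a series with a median of 1.36 and one with 0.19. At 60 min the Y721F arrays had medians over the members of 8.80 and 8.99, and the WT arrays 9.71 and 8.69. At 0 min Y721F stood above WT in 46 of 49 genes, with a median of 0.3. By series, the median was 0.17 in I (37 genes above 0 and 12 below) and 0.43 in II (48 above and 1 below). Limma called none of the 49 genes (0.421% of all genes were called higher), and 1 had an unadjusted p under 0.05. The medians over the members at 180 min were 9.44 and 9.57 in WT and 9.51 and 9.53 in Y721F.

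**Figure D3:**
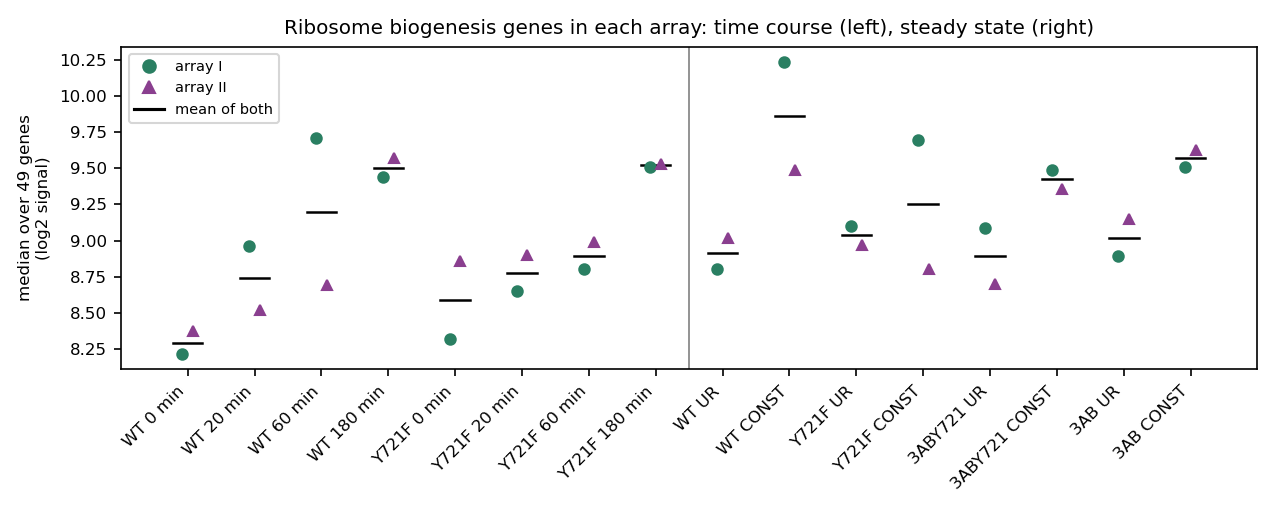
The median log2 signal over the 49 genes is shown for each of the 32 arrays, with array I as a circle, array II as a triangle and a bar for the mean of both; the time course is left of the line and the steady-state groups are right of it. The arrays of WT at 60 min (9.71 and 8.69), WT CONST (10.24 and 9.49) and Y721F CONST (9.7 and 8.8) are the furthest apart within a group.

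In WT cells grown continuously in CSF-1, the mean signal was above that of starved cells in all 49 genes. Limma called 20 of them higher and none lower, against 2.30% of all genes called higher and 3.01% lower, and the median difference was 1.02 with a range from 0.37 to 1.63 (all genes, -0.03). The CONST arrays lay above the UR arrays without overlap in 48 genes, all but Wdr3, and in 19.5% of all genes. The sizes differed between the 2 arrays of the CONST group: the median over the members was 10.24 in array I and 9.49 in array II, against 8.8 and 9.02 in UR. Compared number by number, the median difference was 1.55 with array I and 0.5 with array II. With these, 49 and 15 genes exceeded 1.5-fold (7.06% and 3.34% of all genes). The numbers hardly pair steady-state arrays, with correlations of 0.0423 to 0.28 between UR and CONST of a line. The match by number is thus arbitrary, here and in the other steady-state comparisons. The count of calls was 0 without UR array I, 5 without UR array II and 0 without CONST array I, and it was 44 without CONST array II.

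By role, all 3 H/ACA proteins and 5 of the 6 late small subunit factors were called in WT CONST against UR, beside 2 of 3 nucleolar organisers, 7 of the 14 other large subunit factors, 1 of 3 box C/D proteins, 1 of 3 PeBoW proteins, 1 of 13 processome members and 0 of 4 polymerase I genes. Dkc1, the gene mutated in X-linked dyskeratosis congenita, read 8.34 and 8.56 in UR and 10.64 and 9.51 in CONST, and rose by 1.63 (SE 0.41, adjusted p = 0.0321 by limma, n = 2 a group). Bysl read 7.41 and 8.14 against 9.67 and 8.98, a rise of 1.55 (SE 0.4, adjusted p = 0.0338 by limma, n = 2 a group). In both genes the groups did not overlap. The CONST arrays of Dkc1 were 1.13 apart and its UR arrays 0.22, and those of Bysl were 0.69 and 0.73 apart. Nop2 rose by 1.38, from 8.56 and 9.04 to 10.54 and 9.81, and Wdr12 by 1.36, from 8.54 and 8.8 to 10.39 and 9.66 (each SE 0.31, adjusted p = 0.0181 by limma, n = 2 a group).

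Nop58 read 9.28 and 9.56 in WT UR and 11.27 and 10.2 in CONST, a rise of 1.31 (SE 0.32, adjusted p = 0.0261 by limma, n = 2 a group). Rrp12, a HEAT-repeat factor that helps export the precursors of the subunits, rose by 1.29 (SE 0.31, adjusted p = 0.026 by limma, n = 2 a group), from 7.27 and 7.78 to 9.28 and 8.34. The lowest adjusted p of the list belonged to Nob1, the nuclease that makes the last cut at the 3′ end of the small subunit RNA. It read 8.55 and 8.77 in UR and 9.66 and 9.33 in CONST, a rise of 0.84 (SE 0.16, adjusted p = 0.00752 by limma, n = 2 a group). Ncl, from 10.89 and 10.84 to 11.99 and 11.27, rose by 0.77 (SE 0.21, adjusted p = 0.0479 by limma, n = 2 a group). Not called were Fbl at 0.9 (SE 0.26, adjusted p = 0.0542), Nop56 at 0.78 (SE 0.23, 0.0638), Polr1b at 1.13 (SE 0.37, 0.0842) and Rrs1 at 1.09 (SE 0.36, 0.0967). Rrn3 had 0.53 (SE 0.24, adjusted p = 0.228 by limma), with 9.55 and 9.54 in UR and 10.33 and 9.81 in CONST.

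In the other lines limma called none of the 49 genes for growth in CSF-1 against starvation, while 3.48%, 0.742% and 0.431% of all genes were called higher in Y721F, 3ABY721 and 3AB. Of the members, 2, 15 and 13 had an unadjusted p under 0.05. The spread behind these tests was pooled over all steady-state arrays, among them the WT and Y721F CONST arrays, which lay furthest apart. The absence of calls in 3ABY721 and 3AB is therefore no measure of a difference from WT. All 49 differences were above 0 in 3ABY721, with a median of 0.59, and in 3AB, with a median of 0.54. The CONST arrays lay above the UR arrays in 47 genes in 3ABY721 (24.5% of all genes), all but Nop56 and Utp18, and in 48 in 3AB (26.2%), all but Wdr3. By number the median was 0.46 and 0.68 in 3ABY721 and 0.55 and 0.48 in 3AB. The CONST arrays of these lines lay closer together than those of WT, with a median I minus II of 0.14 and -0.09 against 0.77. The UR arrays did not, at 0.34 and -0.15 against -0.14. Nop58, for example, read 9.7 and 9.37 in 3ABY721 UR against 10.36 and 10.13 in CONST, and 9.73 and 9.86 in 3AB UR against 10.3 and 10.37 in CONST.

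In Y721F the median difference between CONST and UR was 0.2, with 40 genes above 0 and 9 below, and the CONST arrays lay above the UR arrays in 6 genes (25.1% of all genes). The arrays of Y721F CONST went opposite ways. With number I all 49 genes were above UR, with a median of 0.61, and with number II 39 of the 49 were below it, with a median of -0.23 and 7 genes lower by over 1.5-fold (4.61% of all genes). The lowest value with number II was that of Polr1a, -1.13. Polr1b read 8.8 and 8.81 in Y721F UR and 9.35 and 7.9 in CONST, so its 2 CONST arrays lay on either side of the UR arrays. Mxd1, which encodes a MAX partner that opposes MYC, read 8.13 in CONST array I and 10.54 in array II, and its part in the split was not tested. Without Y721F CONST array I 1 member was called, and without array II 3 were.

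**Figure D4:**
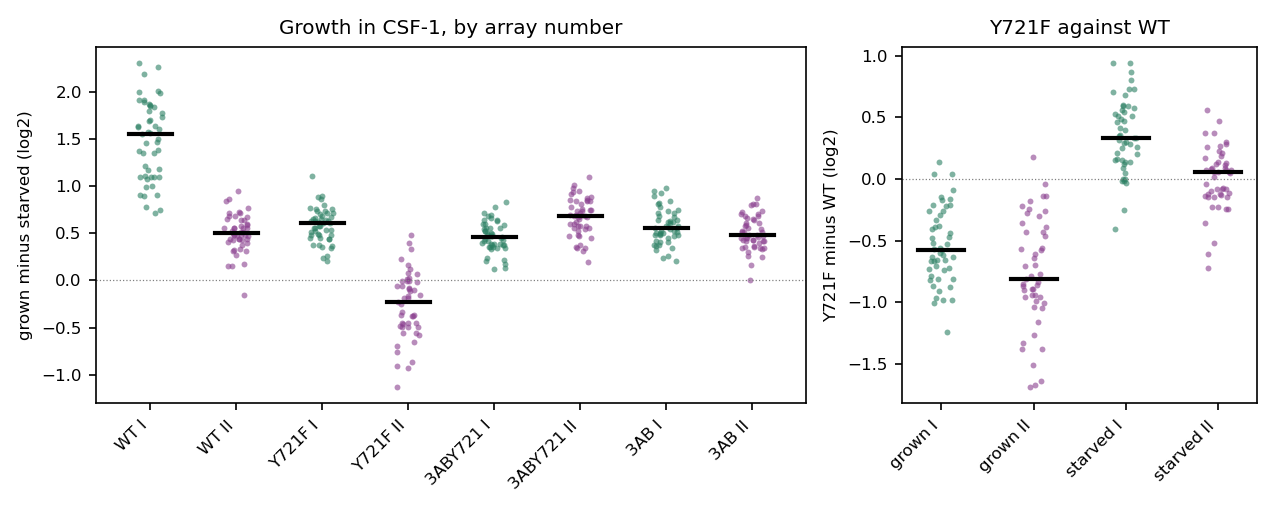
Left, each point is 1 of the 49 genes and shows CONST minus UR (log2) within 1 line and array number, with a bar for the median; right, Y721F minus WT in the same way for cells grown in CSF-1 and starved. WT I has the highest median (1.55) and Y721F II the lowest (-0.23), and Y721F minus WT in CONST has medians of -0.58 and -0.81.

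Set against WT in CONST, Y721F had lower values in 48 of 49 genes, with a median of -0.63 (all genes, 0.05). Limma called 3 of them lower and none higher, against 4.94% of all genes called lower and 2.94% higher, so the share among the members (3 of 49) was near the background. With array I alone the median was -0.58 and with array II alone -0.81, and 24 and 31 genes were lower by over 1.5-fold (7.52% and 7.59% of all genes). The arrays of the groups did not overlap in 6 genes (19.2% of all genes). Heatr1 read 10.57 and 9.4 in WT CONST and 9.33 and 7.73 in Y721F CONST (difference -1.45, SE 0.4, adjusted p = 0.0308 by limma, n = 2 a group). Utp20, a large scaffold protein of the processome, read 9.98 and 9.05 against 8.97 and 7.41 (difference -1.33, SE 0.38, adjusted p = 0.0388 by limma, n = 2 a group). Rrn3 read 10.33 and 9.81 against 9.66 and 8.8 (difference -0.84, SE 0.24, adjusted p = 0.0355 by limma, n = 2 a group). All 3 were without overlap between the lines. Markers moved in the same comparison: of the 10 macrophage markers, limma called 4 lower and none higher, Fcgr1 by -5.15, Mertk by -2.78, Lyz2 by -1.54 and Itgam by -0.91, and the mean log2 signal of the list was 11.49 and 11.55 in WT CONST and 10.3 and 10.33 in Y721F CONST. Of the 8 fibroblast markers 1 was called higher, Pdgfra, by 2.04, with list means of 5.7 and 5.71 against 5.88 and 6.15. The part of these markers in the result was not tested. The count depended on single arrays: it was 0 without WT CONST array I, 30 without WT CONST array II, 35 without Y721F CONST array I and 0 without Y721F CONST array II.

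In starved cells Y721F against WT in UR had a median of 0.16 with 39 of 49 genes above 0. By number, the median was 0.33 with array I (42 genes above 0 and 5 below) and 0.06 with array II (27 above and 22 below). Limma called none (3.47% of all genes were called higher and 7.66% lower), with 4 unadjusted p under 0.05. There too 4 of the 10 macrophage markers were called lower and 1 of the 8 fibroblast markers higher. The difference between the growth effects of the 2 lines was below 0 in all 49 genes, with a median of -0.86, but limma called none, where 0.0150% of all genes were called lower; 19 members had an unadjusted p under 0.05. The count of calls was 23 without Y721F CONST array I and 2 without WT CONST array II. In the second pair of lines, 3AB against 3ABY721, limma called none of the 49 genes in CONST (median 0.06) or UR (median 0.11), with 0 unadjusted p under 0.05 in both, against 0.542% and 0.246% of all genes called higher. The difference between their growth effects had a median of -0.02, and limma called none (0 with an unadjusted p under 0.05).

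The rest of the pathway was read from lists of genes with the same or neighbouring roles. In WT at 180 min, 8 of 35 further small subunit factors were called higher, with a median of 0.66. They were led by Wdr75 (1.44), Utp4 (1.39), Nol10 (1.33) and Rcl1 (1.22), the first 3 of them processome subunits. Of 38 further large subunit factors 10 were called, with a median of 0.74, led by the GTPase gene Gtpbp4 (1.78), Nifk (1.4), Nol9 (1.28) and Urb2 (1.23). In the RNA exosome, which trims the precursor RNAs, 2 of 12 were called, the nuclease gene Dis3 (1.01) and Exosc2 (0.87), with a median of 0.47. Of 9 further polymerase I genes 1 was called, Taf1a (0.81), a subunit of the selectivity factor, and the median was 0.32. The placement of the Taf1a probe set is uncertain, as described below. Each of these genes had an adjusted p from 0.0105 to 0.0475 by limma (n = 2 a group). With the block the counts were 21 of 35, 24 of 38, 2 of 9 polymerase I genes and 4 of 12 exosome genes. The median of the 49 members, 1.2, was above that of each of these lists, and the members had been picked with results of these data known.

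Genes for the proteins of the finished ribosome showed another pattern. Of the 79 cytosolic ribosomal protein genes listed, 55 were measured, with a median of -0.04 in WT at 180 min and 0.02 in WT CONST against UR. In each comparison 1 was called, Rpl12, by 1.74 (SE 0.35, adjusted p = 0.0323 by limma, n = 2 a group) and 1.32 (SE 0.32, adjusted p = 0.026 by limma, n = 2 a group). It read 7.19 and 7.54 at 0 min, 9.03 and 9.18 at 180 min, 6.71 and 6.91 in UR and 8.76 and 7.5 in CONST. These readings lie well below the median gene mean of the list, 12.03. The highest gene mean was 13.48 in the list and 13.96 on the array. Whether changes are read equally well at such levels was not tested. Ribosomal protein genes have many near-identical processed copies, so their probe sets are uncertain. In WT CONST against UR, 6 of 35 further small subunit factors (median 0.58) and 6 of 38 further large subunit factors (median 0.6) were called higher. The leading calls were Wdr75 (1.1), Utp4 (1.04), Dimt1 (0.91) and Wdr36 (0.83), and Mdn1 (1.42), Gtpbp4 (1.02), Nle1 (0.97) and Nmd3 (0.91). Taf1a was called again (0.83), and none of 12 exosome genes was (median 0.48, 8 with an unadjusted p under 0.05 in limma). Of the 10 macrophage markers, 4 were called the other way in that comparison: Mertk, Adgre1, Lyz2 and Ptprc were lower, with limma differences from -1.79 to -0.62. The mean log2 signal of the 10 markers was 11.87 and 12.11 in the UR arrays and 11.49 and 11.55 in the CONST arrays, and their part in the result was not tested.

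**Figure D5:**
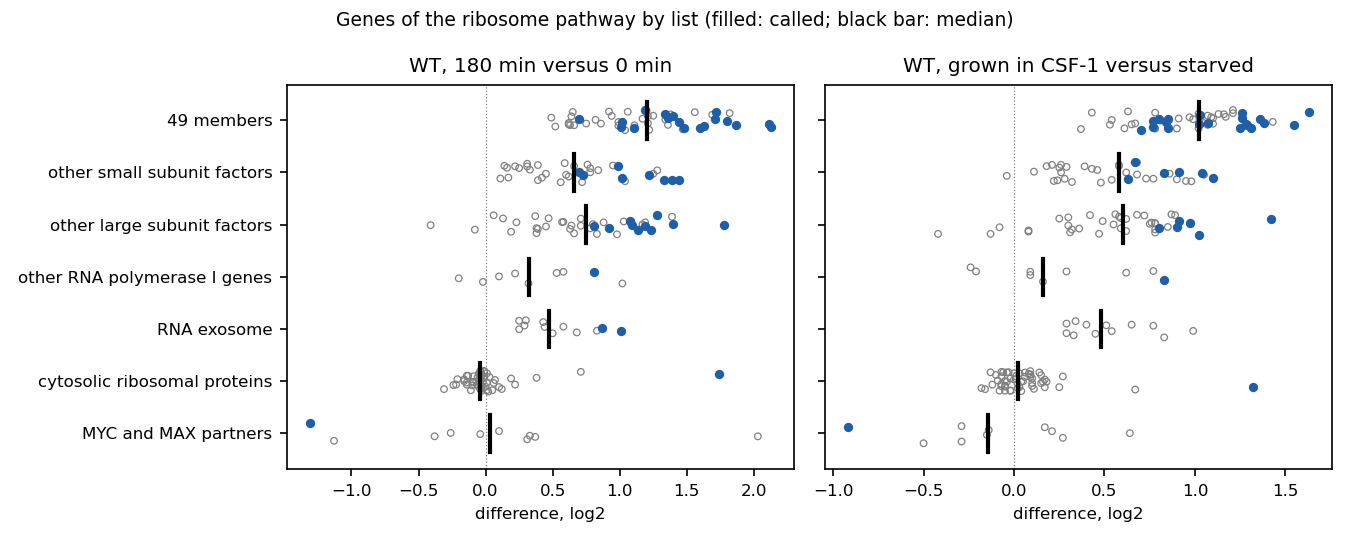
Differences (log2) for WT at 180 min against 0 min (left) and WT CONST against UR (right) are shown for the 49 members and 6 related lists, 1 point a gene, filled where limma called it, with a bar for the median. The members have medians of 1.2 and 1.02, and the 55 cytosolic ribosomal protein genes have medians of -0.04 and 0.02 with Rpl12 as the 1 filled point.

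Myc, the transcription factor best known for driving this pathway, was at a log2 signal of 9.68 and 7.82 at 0 min in WT and 11.25 and 10.31 at 180 min, and of 7.04 and 6.84 and then 9.42 and 8.83 in Y721F. Its differences at 20, 60 and 180 min were 1.36, 1.94 and 2.03 in WT and 1.76, 2.98 and 2.18 in Y721F (SE 0.64 each, n = 2 a group). Limma called none of the 6 without the block and all 6 with it, at adjusted p between 9.91e-05 and 0.0306. By series, WT Myc read 10.96 and 9.27 at 20 min and 11.08 and 10.3 at 60 min in I and II. Both series thus stood near their 180 min readings at 60 min. The median change of the members at that time was 1.36 in series I and 0.19 in series II. In Y721F Myc read 8.91 and 8.5 at 20 min and 10.38 and 9.46 at 60 min. How its course relates to that of the members was not tested. Myc was lower in Y721F than in WT both in CONST (-1.64, SE 0.45, adjusted p = 0.0316 by limma, n = 2 a group) and in UR (-1.93, SE 0.45, adjusted p = 0.0102 by limma, n = 2 a group). In UR it read 9.52 and 9.33 in WT, 7.16 and 7.83 in Y721F, 6.84 and 7.08 in 3ABY721 and 7.45 and 7.04 in 3AB. In CONST it read 10.55 and 9.58 in WT, 7.78 and 9.06 in Y721F, 7.47 and 8.48 in 3ABY721 and 8.15 and 7.08 in 3AB. The arrays of Y721F, 3ABY721 and 3AB all lay below those of WT in both conditions. Neither 3ABY721 nor 3AB was tested against WT. Among the MAX partners, Mxd1 was lower in WT at 180 min (-1.31, SE 0.24, adjusted p = 0.0247 by limma, n = 2 a group), with 9.23 and 8.99 at 0 min and 7.83 and 7.77 at 180 min. With the block Mxd1 and Mxd4 were both called lower at 180 min in WT and in Y721F, where limma without it called Mxd1 in WT only. Mxd4 was lower in WT CONST than in UR (-0.92, SE 0.21, adjusted p = 0.0184 by limma, n = 2 a group).

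For 3 members the probe sets may read a near-identical copy of the gene. The identifiers of the probe sets kept for Fbl, Wdr12 and Ddx18 lie among those of genes on chromosomes 17, 7 and 6, while the genes are on chromosomes 7, 1 and 1. The second probe set of each gene, whose identifier lies among those of the gene's own chromosome, gave WT differences at 180 min of 0.61 against 0.63 for Fbl, 1.08 against 1.11 for Wdr12 and 0.92 against 1.02 for Ddx18. The probe sets of Fbl disagreed more elsewhere, with 0.2 in the second against 0.53 in the kept one for Y721F at 180 min, and for CONST against UR 0.03 against 0.27 in Y721F, 0.2 against 0.47 in 3ABY721 and 0.28 against 0.51 in 3AB. Those of Wdr12 gave 0.35 against 0.06 in Y721F CONST against UR. Outside the members, Taf1a is a gene on chromosome 1. The identifier of its 1 probe set lies between those of Xcr1 (chromosome 9) and Utp14a (chromosome X), so the same doubt holds. It has no second probe set to compare.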

How the data were processed

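The 32 RNA preparations were each hybridised to 1 array, the Affymetrix Mouse Gene 1.0 ST. The authors deposited 1 log2 signal per probe set and array, for 35556 probe sets; that the scale is log2 was read from the values. How background was corrected and signals were summarized and normalized is not stated in the labels or the file, and the arrays' number (2 a group) limits the precision. Of the probe sets, 23410 are in the array annotation used here: 21789 map to 1 gene, 1621 to several, and 12146 have no entry.

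Each of 19938 genes was tested with limma 3.58.1 in R 4.3.3, in 1 fit of 16 arrays for the time course and 1 for the steady state, without a block, with Benjamini-Hochberg adjustment over all genes. The series text names limma, a fold above 1.5 and p under 0.05; here the adjusted p was used, with the unadjusted cutoff as an alternative. Same-numbered arrays of a line deviated together in the time course (correlations 0.353 to 0.734 over all pairs of groups in a line). The numbers were therefore taken to pair those samples, and blocked values stand beside the results they change. The labels do not say what the numbers mark. The block fits 1 constant shift per line, while the member changes of WT series I and II differed by a median of 1.16 at 60 min and 0.07 at 180 min. Blocked counts rest on that simplification. In the steady state the correlations were 0.255, 0.12, 0.28 and 0.0423, and the block is an alternative only.

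Alternatives were quantile normalization, the mean over a gene's probe sets, leaving out genes under the 20th percentile of mean signal, the block, the unadjusted cutoff, and leaving out each array in turn. Scripts were tested on simulated data.

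The members and lists were chosen with earlier results of these data known. Named are 7 genes followed whatever their value (Nop56, Nop58, Fbl, Ncl, Polr1b, Rrn3 and Rrs1), the up to 6 called members with the largest difference in WT at 180 min and in each line's CONST against UR, up to 4 in other comparisons and lists, and the 2 with the smallest difference in WT at 180 min. Gar1, Dkc1, Bysl, Wdr12, Mybbp1a, Polr1a, Heatr1 and Utp15 in WT at 180 min, Nob1 and the macrophage markers in WT CONST, the markers in Y721F against WT, Mxd1 in Y721F CONST, and Tsr1 in single series were added after their values were seen. So were the comparisons within 1 array number, the counts of groups without overlap, the promoter sequences shown and the check of second probe sets.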

Additional observations from a re-analysis of the deposited data

Results flagged for a closer look

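A signal was present in 5 probe sets that the tests of the members left out, and in each the WT arrays at 180 min of CSF-1 stood above those at 0 min, which serve as the control. The second probe sets of Fbl, Wdr12, Ddx18 and Mrto4 differed by 0.61, 1.08, 0.92 and 1.21 on the log2 scale. The probe set that Ppan shares with B130055M24Rik differed by 1.46, reading 7.81 and 8.05 at 0 min and 9.27 and 9.51 at 180 min, and 7.69 and 7.73 in WT UR against 9.45 and 8.66 in WT CONST. Which of the 2 genes gives that signal cannot be told apart. None of the 5 was tested. No group has more than 2 arrays, so no array could be examined as an outlier within its group.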

How the results depend on the processing

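The counts of called members depended most on single arrays and on the block. With the replicate block the counts were 47 for WT at 180 min (18 without it), 15 for WT at 60 min (0), 29 for Y721F at 180 min (1), 32 for WT CONST against UR (20) and 5 for Y721F against WT in CONST (3); the block changed no other count. Quantile normalization gave 1 for Y721F against WT in CONST and 3 in UR (0 without it). The unadjusted cutoff of the series text gave 1, 31 and 46 for WT at 20, 60 and 180 min, 2 and 35 for Y721F at 60 and 180 min, 1 for Y721F against WT at 0 min, 45 for WT CONST against UR, 1 in Y721F, 11 in 3ABY721 and 7 in 3AB, 23 and 1 for Y721F against WT in CONST and UR, and 19 for the difference between the growth effects of Y721F and WT. Leaving out 1 array at a time gave 0 to 33 for WT at 60 min, 0 to 3 for WT at 180 min, 0 for Y721F at 180 min in each case, 0 to 44 for WT CONST against UR, 0 to 3 for Y721F CONST against UR, 0 to 35 for Y721F against WT in CONST and 0 to 23 for the difference between the growth effects of Y721F and WT. The cause of these shifts was not tested, beyond fewer arrays in each such fit. A group left with 1 array is assumed to vary like the others. All other counts stayed within 1.5 times. Among the named genes 4 differences, none of them called, changed sign without 1 array: Nop56 in WT at 60 min was 0.49 and became -0.03 without 60 min array I and 1.01 without array II. In Y721F CONST against UR, Polr1a (-0.33) became -1.03 without CONST array I and 0.38 without array II, Polr1b (-0.18) became -0.9 and 0.54, and Mxd1 (1.11) became 2.31 and -0.09. Of the 968 other values under the alternatives (single named genes and medians over the members), 744 kept their side of the threshold or moved by less than the spread, 164 lost a call, 36 gained one, 4 changed sign and 20 medians, which have no test, moved by more than the spread.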
